A study of Mus musculus with 1677 samples.

Results

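Brown adipose tissue was described here by the phase of its own clock in place of the labelled clock time. All 48 brown fat libraries, of 1035 in the series, were ranked by the log2(CPM + 1) of Dbp minus that of Arntl, 2 clock genes that peak near opposite times of day (CPM, counts scaled to the same library total). The 24 libraries with the highest values formed the high group and the 24 with the lowest the low group, with both feeding groups pooled. Values measured on these libraries therefore chose the groups, and the difference between them is given for every gene as a description, with no test.

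The series measured polyadenylated RNA over the day in 22 tissues of wild-type C57BL/6J mice. The mice were bought at an age of 10 weeks, kept for 2 weeks on chow under 12 h of light and 12 h of darkness, and then ate a Western diet (45% fat, 17% sucrose) for 7 weeks. In time-restricted feeding (TRF) food was given for 9 h, from ZT13 to ZT22, and in ad-libitum feeding (ALF) it was always there; ZT counts hours from lights on. TRF and ALF mice thus shared the strain, the light cycle and the Western diet, and no brown fat library came from chow-fed mice. Each feeding group had 24 brown fat libraries, 2 at each of 12 labelled times.

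The cellular clock is a loop of transcription factors. ARNTL (BMAL1) pairs with CLOCK or NPAS2 and binds E-boxes in the genes of its own repressors, PER and CRY, and of the nuclear receptors REV-ERBα and REV-ERBβ (Nr1d1 and Nr1d2), which in turn repress Arntl through sites they share with the ROR receptors. DBP, TEF and HLF carry the rhythm to other genes through D-boxes, where NFIL3 acts against them. Brown fat burns fatty acids and glucose for heat through the uncoupling protein UCP1, and in mice REV-ERBα represses Ucp1 in this tissue.

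The labelled times did not order the score of the brown fat libraries in 1 cycle per day. It averaged 4.73 ± 0.55 at labelled ZT4 and 4.27 ± 1.29 at ZT18, but -3.88 ± 0.12 at ZT0 and -3.42 ± 0.54 at ZT10 (SD, n = 4 each), so that there were 2 crests and 2 troughs within the labelled day. A 24 h cosine of the labelled time had an R2, the share of variance it takes, of 0.0568 in brown fat (permutation p = 0.265, 100000 resamples). In epididymal white fat (eWAT) and inguinal white fat (iWAT), each also with 48 libraries, the same cosine had an R2 of 0.893 and 0.943, with peaks at ZT13.3 and ZT12.7 and a permutation p of 1e-05 in both depots, the smallest the resamples can give. With a period of 12 h, chosen after these values were seen, R2 was 0.731 in brown fat, given as a description with no test, 0.0242 in eWAT and 0.00868 in iWAT.

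**Figure D1:**
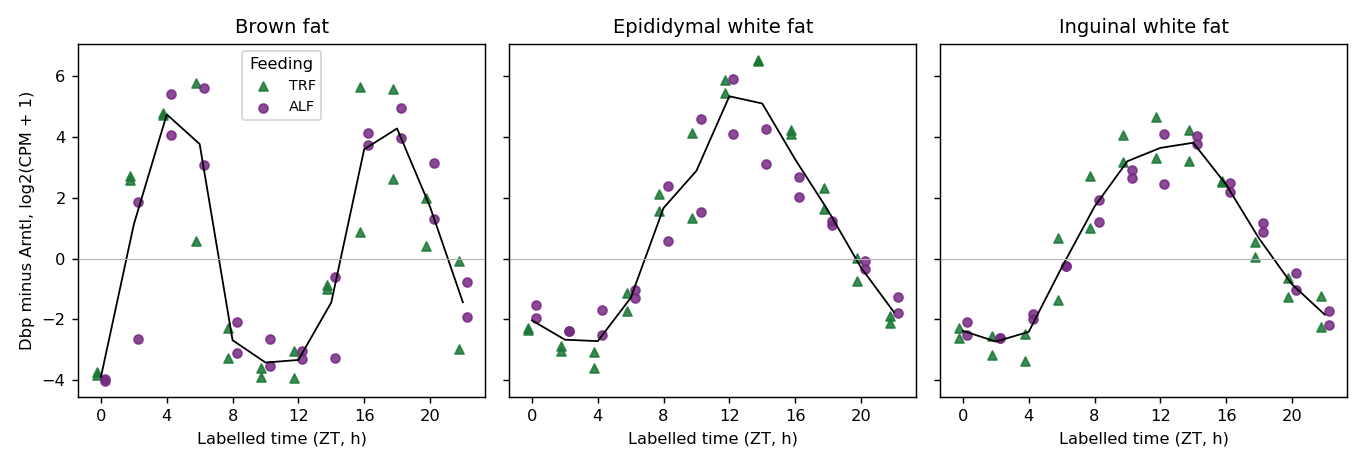
Score of each library (log2(CPM + 1) of Dbp minus that of Arntl, vertical axis) against the labelled time in hours (horizontal axis) in brown fat, epididymal white fat and inguinal white fat, with triangles for TRF, circles for ALF and a line through the mean at each time. Brown fat has crests near ZT4 and ZT18, and each white depot has 1 crest, near ZT13.

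Libraries that share a label mostly shared a phase. At 10 of 12 labelled times all 4 libraries fell in the same group, and 22 of 24 pairs with the same time and feeding label did. Of the ALF libraries at ZT2, the one numbered 1 scored -2.65, while the other scored 1.86. Of the TRF libraries at ZT22, number 2 scored -2.98 and number 1 scored -0.0816. When the 48 libraries were put in the order of the library numbers that the labels give, the sign of the score changed 4 times, and a cosine with a period of 24 libraries had an R2 of 0.793. Whether the feeding labels of brown fat are touched by whatever separates the labelled times from clock phase was not tested.

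Total counts ran from 6.15 to 72.3 M in the high group (M, mega; median 11.8 M) and from 4.18 to 81.2 M in the low group (median 14.3 M). Libraries sequenced in 1 run made up 16 of 24 in the high group and 9 of 24 in the low group (two-sided Fisher's exact test, p = 0.082). The 10 genes listed as brown adipocyte markers were all detected, with summed levels of 4203 to 17680 CPM in the high group and 4516 to 12624 CPM in the low group, so the defining markers of the labelled tissue were present. The labels do not say that replicates were separate animals, so p-values measure the spread between these libraries. In bulk tissue, fewer cells of a type and less RNA per cell cannot be told apart.

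The score ran from -0.0816 to 5.76 in the high group (median 3.43) and from -4.01 to -0.62 in the low group (median -3.07). The 2 libraries just above the boundary scored 0.419 and -0.0816, and the 2 just below it -0.62 and -0.769. Libraries labelled ZT6 to ZT16 made up 8 of 24 in the high group and 16 of 24 in the low group, an odds ratio of 0.25 (two-sided Fisher's exact test, p = 0.0422), but with the 12 highest against the 12 lowest libraries this was 5 of 12 against 8 of 12 (exact p = 0.414). At 10 of 12 labelled times all 4 libraries fell in the same group, so libraries are not independent over labelled times. The p-values for labels of ZT6 to ZT16, here and under other settings, are therefore a description. TRF libraries were 13 of 24 in the high group and 11 of 24 in the low group (exact p = 0.773).

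A gene was counted as higher or lower in the high group where the means of log2 CPM differed by at least 0.5 and by more than the SD in either group. By this measure 162 of 13309 genes differed, Dbp and Arntl among them, a share of 1.22%: 58 were higher (0.436%) and 104 were lower (0.781%). Since the rule used the same libraries, nothing is read from these shares. In libraries of 1 run 552 genes met the measure and in libraries of several runs 117, with 148 and 74 of the 162 among them. All 162 had the same sign within TRF, within ALF and among the libraries of each replicate number. The measure picked the 162 from these same libraries, which largely sets this outcome, so it is a description. Ranking the libraries instead by Nr1d1, Tef and Per3 against Npas2 and Clock kept 23 of 24 libraries in each group and 136 of the 162 genes. Tef, Per3, Npas2 and Clock are themselves among the 162, so this overlap is a description and not an independent check.

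The activators of the loop were all lower in the high group. Arntl, which the rule used, had 1.01, 4.35 and 21.9 CPM in the high group (lowest, median and highest) and 21.5, 44.4 and 63.2 CPM in the low group. Npas2, the alternative partner of ARNTL, had 0, 0.250 and 6.98 CPM in the high group and 0.726, 5.2 and 27.7 CPM in the low group, and its means differed by -4.12 on the log2 scale (SD 1.64 in the high group and 1.44 in the low group). At the median this gene was at or below 1 CPM in the high group, so its fold rests on few reads. Clock had the smallest difference of the activators, with 76.1, 109 and 170 CPM in the high group and 128, 171 and 242 CPM in the low group, a difference of -0.63 (SD 0.35 and 0.27).

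Promoters of 4 clock genes are shown because their levels lie on opposite sides of the loop. Each holds a match to a motif that was searched for. Only matches to the letters given below were marked, so other forms of these sites, where present, stay in lower case. The windows come from RefSeq (GRCm38.p6) and run from 250 bases before the annotated start to 50 after it, 5′ to 3′ on the gene's strand. Capitals mark the E-box CACGTG in Ciart (chr3:95882179-95882478, minus strand), the D-box TTATGTAA in Per3 (chr4:151044616-151044915, minus strand), and the ROR element TNGGTCA or its reverse complement in Arntl (chr7:113207215-113207514, plus strand) and Nfil3 (chr13:52980990-52981289, minus strand).
Ciart: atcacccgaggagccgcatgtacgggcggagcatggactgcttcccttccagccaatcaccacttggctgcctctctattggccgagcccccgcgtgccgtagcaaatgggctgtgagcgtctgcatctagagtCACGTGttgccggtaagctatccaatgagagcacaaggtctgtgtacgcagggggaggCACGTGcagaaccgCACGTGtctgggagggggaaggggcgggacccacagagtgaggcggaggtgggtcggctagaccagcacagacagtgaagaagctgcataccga
Per3: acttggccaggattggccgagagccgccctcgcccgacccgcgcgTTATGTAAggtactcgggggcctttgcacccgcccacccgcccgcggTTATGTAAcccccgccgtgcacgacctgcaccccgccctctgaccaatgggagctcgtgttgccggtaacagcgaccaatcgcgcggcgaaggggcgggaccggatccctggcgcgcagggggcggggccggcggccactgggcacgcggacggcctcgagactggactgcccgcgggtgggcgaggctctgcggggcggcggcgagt
Arntl: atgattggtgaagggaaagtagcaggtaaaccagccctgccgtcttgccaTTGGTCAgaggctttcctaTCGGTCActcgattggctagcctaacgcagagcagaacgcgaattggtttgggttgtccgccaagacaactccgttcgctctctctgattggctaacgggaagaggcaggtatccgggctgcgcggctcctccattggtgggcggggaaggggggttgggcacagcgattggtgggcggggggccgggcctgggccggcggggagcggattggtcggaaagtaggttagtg
Nfil3: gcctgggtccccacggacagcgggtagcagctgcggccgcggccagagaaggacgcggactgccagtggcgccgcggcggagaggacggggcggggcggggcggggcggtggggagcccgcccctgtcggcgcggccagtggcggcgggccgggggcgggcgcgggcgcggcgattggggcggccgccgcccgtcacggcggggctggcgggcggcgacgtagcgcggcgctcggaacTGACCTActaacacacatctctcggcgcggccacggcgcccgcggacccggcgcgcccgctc

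Ciart, a repressor of CLOCK and ARNTL, holds 3 E-boxes, at -116, -58 and -44 bases from the start. Per3 holds 2 D-boxes at -205 and -158, Arntl 2 matches to TNGGTCA at -200 and -181, and Nfil3 1 at -12. These matches were not compared with ROR sites known to act in Arntl or Nfil3. With both strands searched, CACGTG occurred in 7.15% of all 32851 such windows, TTATGTAA in 0.938% and TNGGTCA in 11% of them. These windows belong to 27025 gene symbols, so a gene can have several. Below, a gene was counted where any of its windows held the motif, so its shares are not directly comparable with those over windows. Among the clock genes higher in the high group, 3 of 8 with a window held CACGTG (Bhlhe41, Ciart and Tef), 1 held TTATGTAA and 2 held TNGGTCA (Per3 and Tef). Among those lower in the high group, 2 of 5 held TNGGTCA (Arntl and Nfil3), 1 held CACGTG (Cry1) and none held TTATGTAA. Among the clock genes that met neither side of the measure, 3 of 11 held CACGTG (Cipc, Klf15 and Per1), 1 held TNGGTCA (Cry2) and none held TTATGTAA. No capital letters of the printed windows are shared with another of these motifs. A match is a description of the letters and not a site of binding, and no match says only that these letters are not in the window.

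Of the 10 repressors, 4 were higher in the high group and 1 was lower. Ciart had 0.460, 4.48 and 16.9 CPM in the high group and 0.136, 0.533 and 1.96 CPM in the low group, a difference of 2.74 (SD 1.51 and 0.97). Nr1d2, which encodes REV-ERBβ, had 97.4, 186 and 331 CPM in the high group and 18.1, 42.3 and 105 CPM in the low group, a difference of 1.94. Apart from 1 library, every high-group value of Nr1d2 lay above every low-group value. Per3, a period gene that the loop needs least, had 16.5, 69.7 and 126 CPM in the high group and 9.94, 16.9 and 61.9 CPM in the low group (difference 1.82). Bhlhe41 (DEC2), which competes for E-boxes, had 17.8, 49.0 and 75.8 CPM in the high group and 8.40, 15.04 and 31.9 CPM in the low group (difference 1.46).

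Cry1 was the repressor on the other side, with 4.13, 19.2 and 41.5 CPM in the high group and 9.74, 44.8 and 80.3 CPM in the low group, a difference of -1.003 (SD 0.85 and 0.97). The remaining repressors overlapped widely between the groups. Per2 had 2.94, 33.6 and 93.3 CPM in the high group and 1.84, 10.1 and 51.0 CPM in the low group, and Nr1d1 had 11.8, 111 and 232 CPM in the high group and 4.94, 30.6 and 165 CPM in the low group. Their differences of 1.53 and 1.32 were smaller than the low-group SDs of 1.61 and 1.51. Per1 (0.87), Bhlhe40 (0.81) and Cry2 (0.38) also had positive differences that did not meet the measure.

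All 3 D-box activators were higher in the high group. Dbp, the other gene of the rule, had 17.0, 62.1 and 126 CPM in the high group and 2.42, 4.28 and 15.03 CPM in the low group. Tef had 136, 296 and 419 CPM in the high group and 59.5, 98.9 and 184 CPM in the low group, a difference of 1.46 (SD 0.42 and 0.51), and 22 of the 24 high-group libraries exceeded every low-group library. Hlf had 25.6, 108 and 196 CPM in the high group and 16.8, 53.8 and 103 CPM in the low group (difference 1.14). Their opponent Nfil3 was lower, with 5.97, 18.4 and 77.3 CPM in the high group and 16.8, 41.99 and 93.4 CPM in the low group (difference -1.23). Of the ROR receptors, which activate Arntl, Rora differed by 0.23 and Rorb by -0.43, and neither met the measure.

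Among the clock outputs, Usp2 and Wee1 were higher. Usp2, a ubiquitin protease, had 26.6, 57.3 and 126 CPM in the high group and 9.51, 20.9 and 61.2 CPM in the low group (difference 1.35), and Wee1, a kinase that delays mitosis, had 5.88, 15.8 and 24.1 CPM in the high group and 5.13, 8.34 and 14.7 CPM in the low group (difference 0.70). Nampt, Cipc, Klf9, Klf10, Klf15, Lpin1 and Por had positive differences of 0.26 to 0.55 that did not meet the measure.

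**Figure D2:**
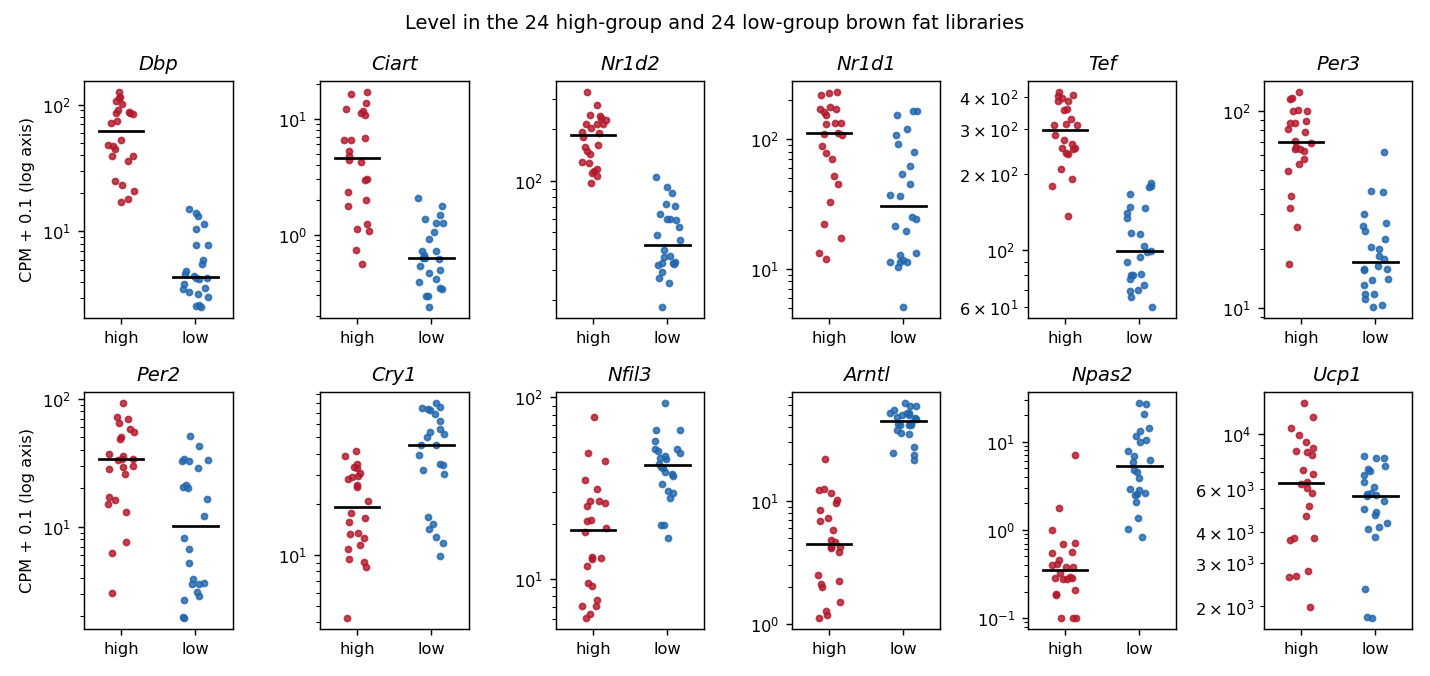
Level (CPM + 0.1, log axis) of 11 clock genes and Ucp1 in the 24 high-group and 24 low-group brown fat libraries; each point is a library and the bar is the median. Dbp and Arntl formed the groups; Nr1d2 and Tef nearly separate, Per2 and Nr1d1 overlap widely, and Ucp1 medians are 6313 and 5623 CPM.

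The white depots give samples that the rule did not use, and their labelled times can be tested. Libraries labelled ZT6 to ZT16 were compared with those labelled ZT18 to ZT4 by edgeR's quasi-likelihood test with feeding as a term. In eWAT 10.7% of 14132 genes passed at an adjusted p under 0.05 (7.03% higher, 3.72% lower), and in iWAT 28.4% of 14609 (14.3% higher, 14.1% lower). In brown fat the same test of the labels called 0 of 13309 genes, a share of 0%, with 746 at an unadjusted p under 0.05 and 0 by DESeq2.

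Of the brown fat genes higher in the high group, Dbp and Arntl set aside, 17 of the 49 tested in eWAT and 22 of the 53 tested in iWAT rose at ZT6 to ZT16, or 34.7% and 41.5%. Of those lower in the high group, 35 of 101 fell in eWAT and 56 of 102 in iWAT, or 34.7% and 54.9%. None of these genes passed in the opposite direction in either depot. The shared genes were 1.71% of the genes that rose in eWAT, 6.65% of those that fell there, 1.05% of those that rose in iWAT and 2.71% of those that fell there. With one replicate number left out, which leaves 24 libraries, the eWAT test called 642 genes (without replicate 1) or 7 (without replicate 2), and the iWAT test 176 (without replicate 1) or 1645 (without replicate 2).

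By role, all 3 activators fell in both depots (Npas2 by 1.42 ± 0.40 in eWAT and 2.20 ± 0.41 in iWAT, log2 fold change ± SE, adjusted p of 0.0161 and 1.33e-04). Of the repressors 7 of 10 rose and Cry1 fell in each depot, and all 3 D-box activators rose. Nr1d1, which overlapped between the brown fat groups, rose by 2.68 ± 0.26 in eWAT and 2.31 ± 0.29 in iWAT. Nfil3 fell by 1.18 ± 0.21 in eWAT and 1.29 ± 0.15 in iWAT. Usp2 and Wee1, higher in the brown fat high group, did not pass in either white depot (Usp2 at 0.33 ± 0.26 and 0.22 ± 0.24, Wee1 at 0.14 ± 0.19 and 0.19 ± 0.17, in eWAT and iWAT in turn). Both did pass the 24 h cosine described next in each white depot, Usp2 with adjusted p of 2.08e-04 in eWAT and 1.34e-04 in iWAT and Wee1 with 2.71e-08 in eWAT and 5.90e-15 in iWAT, with peaks 43.75 to 56.2 degrees of a cycle after Dbp (Usp2 did not pass in iWAT without replicate 2, adjusted p = 0.056). Without replicate 2 Nr1d1, Nr1d2 and Cry1 were the clock genes that still passed in eWAT, and Cry1 just missed there without replicate 1 (adjusted p = 0.0501). In iWAT the activators, Nr1d1, Nr1d2, Ciart and Nfil3 passed without either replicate, while Per1, Per3, Cry1, Bhlhe41, Tef and Hlf did not pass without replicate 1. Whether these differences vary between depots was not tested.

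**Figure D3:**
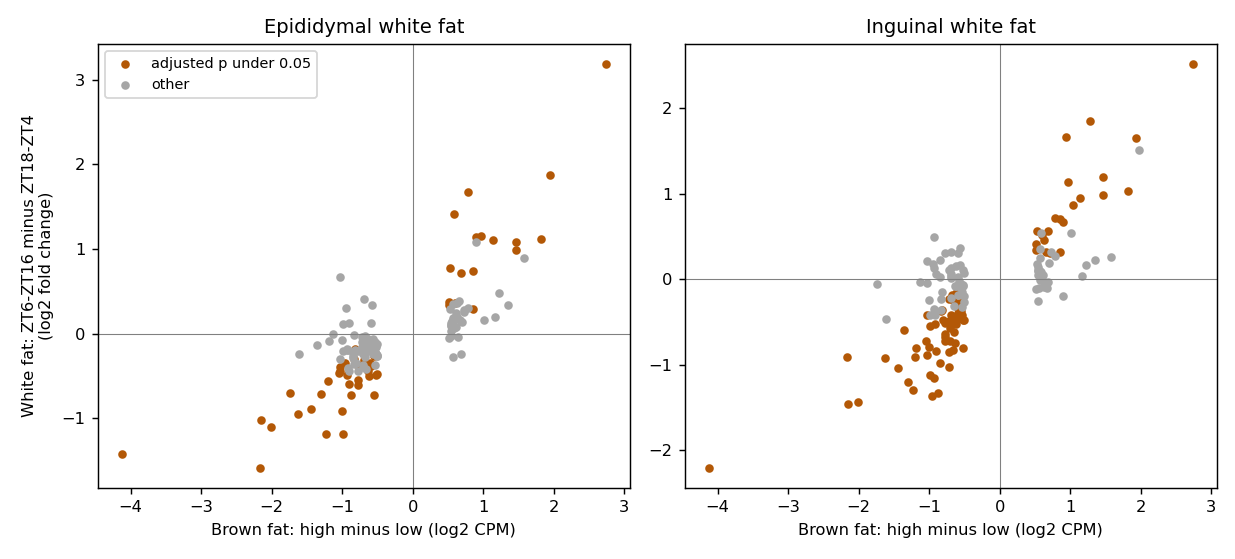
Each point is a gene that differed between the brown fat groups, Dbp and Arntl left out: the high minus low difference of mean log2 CPM in brown fat (horizontal axis) against the log2 fold change of ZT6 to ZT16 over ZT18 to ZT4 in epididymal (left) and inguinal (right) white fat, coloured where the adjusted p is under 0.05. Coloured points have the same sign on both axes in both panels.

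A cosine of the labelled time with 2 cycles per labelled day was then fitted with edgeR's quasi-likelihood test to each gene of brown fat, and one with 1 cycle per day to each gene of the white depots, so that peaks could be given relative to that of Dbp as degrees of a cycle. In brown fat 30.3% of 13309 genes passed, against 1.63% with 1 cycle per day. In eWAT and iWAT 27.4% and 28.5% passed, and with 2 cycles per day 0% in both, with 1208 and 449 genes at an unadjusted p under 0.05. The period for brown fat was chosen from the score of these libraries, so the tests of Dbp and Arntl themselves are a description. Those of genes whose levels follow Dbp or Arntl, the other clock genes among them, are not independent of that choice. Their adjusted p-values in brown fat are therefore given as a description too. The same holds for adjusted p-values and counts of passing genes in brown fat for every list below. The same libraries chose the period of those tests. With 24 libraries the shares were lower: without replicate 1 they were 3.79% in brown fat, 13.2% in eWAT and 2.14% in iWAT, and without replicate 2 they were 7.44%, 6.63% and 15% in the same order of depots.

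Dbp and Arntl set aside, Clock and Npas2, 9 of 10 repressors, and Tef and Hlf passed in brown fat, against 30.3% of all genes. Bhlhe40 was the repressor that missed (adjusted p = 0.059), and Hlf and Cry2 did not pass without replicate 2 (adjusted p of 0.0654 and 0.132). Nr1d1, whose groups overlapped, had an amplitude of 1.71 on the log2 scale (adjusted p = 2.44e-09) and peaked 52.8 degrees before Dbp in brown fat (-52.8), compared with -44.6 in eWAT and -44.0 in iWAT. Per2 had an amplitude of 1.504 (adjusted p = 5.60e-06) and peaked 62.6 degrees after Dbp, against 50.9 in eWAT and 56.1 in iWAT. Cry1 followed at 132 degrees in brown fat, against 117 in eWAT and 122 in iWAT.

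The order closed with Nfil3, Arntl and Npas2. Nfil3 peaked at 142 degrees in brown fat, 146.8 in eWAT and 149.1 in iWAT, Arntl at 176 degrees in brown fat, 184.5 in eWAT and 187.4 in iWAT, and Npas2 at 208.4 degrees in brown fat, 199.7 in eWAT and 203.5 in iWAT. Of the 30 clock genes 23 passed in all 3 depots. Over the 22 other than Dbp the phase in brown fat differed from that in eWAT by a median of 8.08 degrees (range -52.9 to 44.2) and from that in iWAT by 6.61 degrees (range -57.3 to 11.3). The widest gap to either white depot belonged to Klf15, a metabolic regulator that peaked at -1.33 degrees in brown fat, 51.6 in eWAT and 56.0 in iWAT. Next against eWAT came Lpin1, a phosphatidate phosphatase at 64.4 degrees in brown fat, 20.3 in eWAT and 53.1 in iWAT, and next against iWAT came Usp2, with brown fat minus iWAT at -20.9 degrees. Phases carry no error here, and their differences were not tested. In brown fat Klf15 did not pass without replicate 2, and Lpin1 did not pass without either replicate.

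Amplitudes on the log2 scale differed by gene and depot, and these differences were not tested. Dbp had 2.18 in brown fat, 2.25 in eWAT and 2.26 in iWAT, and Per3 had 1.24 in brown fat, 1.32 in eWAT and 1.33 in iWAT. Arntl had 2.01 in brown fat, 1.88 in eWAT and 1.23 in iWAT, and Ciart had 2.18 in brown fat, 2.68 in eWAT and 1.797 in iWAT. Hlf had 0.72 in brown fat, 1.26 in eWAT and 1.19 in iWAT.

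**Figure D4:**
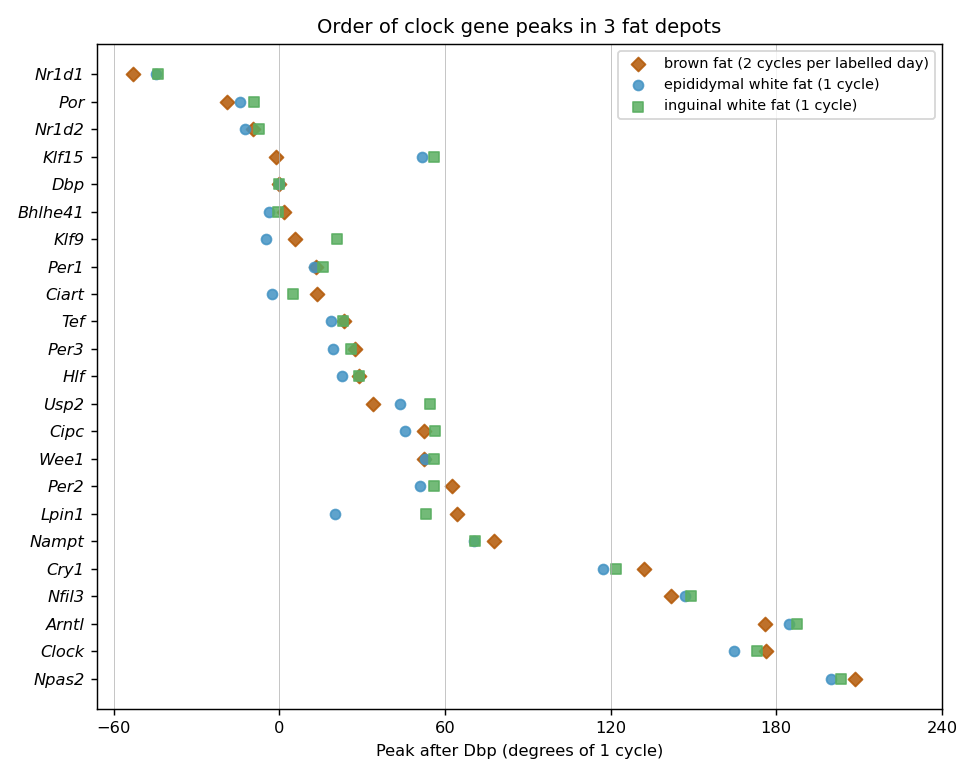
Peak of each of the 23 clock genes that passed in all 3 depots, in degrees of 1 cycle after the peak of Dbp (horizontal axis), with diamonds for brown fat, circles for epididymal and squares for inguinal white fat. Genes run from Nr1d1 at the top to Npas2 at the bottom in the order of brown fat; Klf15 lies farthest apart between brown fat and the white depots.

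None of the 22 thermogenesis genes tested, of 24 listed, differed between the groups, against 1.22% of all genes (Bmp8b and Fgf21 had too few counts). Their median difference was 0.07, against -0.01 for all genes. Ucp1 had 1998, 6313 and 13377 CPM in the high group and 1794, 5623 and 8093 CPM in the low group, a difference of 0.22 (SD 0.75 and 0.61). The 9 highest Ucp1 values were all in the high group, but the groups overlapped over most of their range. Elovl3, a fatty acid elongase of brown fat, had 2.99, 39.0 and 240 CPM in the high group and 0.993, 15.9 and 67.9 CPM in the low group, and its difference of 1.49 was below its high-group SD of 1.68. Dio2, the deiodinase that makes active thyroid hormone, had 6.14, 71.5 and 289 CPM in the high group and 6.68, 98.7 and 380 CPM in the low group (difference -0.33).

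A gene whose peak falls between those of Dbp and Arntl can differ little between the groups. With 2 cycles per labelled day 7 of the 22 thermogenesis genes passed, near the share of 30.3% over all genes. Without replicate 1 it was 1 of 22, against 3.79% of all genes, and without replicate 2 it was 3 of 22, against 7.44%. Dio2 was the one that passed in every one of these fits, with an amplitude of 1.09 (adjusted p = 8.74e-05, and 0.0224 and 0.0275 without replicate 1 and 2). It peaked 97.9 degrees after Dbp in brown fat, 95.6 in eWAT and 116 in iWAT. Its mean level was 232 ± 119 CPM at labelled ZT8 and 167 ± 125 CPM at ZT18, but 39.6 ± 29.5 CPM at ZT2 and 50.7 ± 40.4 CPM at ZT14 (SD, n = 4 each). Elovl3 (adjusted p = 0.0062), Adrb3, the β3 adrenergic receptor (0.00202), Esrrg (6.99e-04), Cpt1b (0.00351), Letmd1 (0.00232) and Cidea (0.0252) passed with all libraries, each missing without replicate 1. Their peaks in brown fat ranged from -41.2 degrees (Esrrg) to 159 degrees (Adrb3) after Dbp. Ucp1 did not pass (amplitude 0.24, adjusted p = 0.254).

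The other members of the list had differences between the groups from -0.46 for Adrb3 to 0.33 for Letmd1, a mitochondrial protein needed for heat production in mice. Ppargc1a and Ppargc1b, coactivators of mitochondrial genes, differed by -0.17 and -0.29, and the receptors Pparg, Ppara, Esrra and Esrrg by 0.02, -0.00, 0.09 and 0.23. Prdm16, Ebf2 and Zic1, which mark the brown lineage, differed by 0.06, -0.17 and 0.15. Cidea, Cox7a1, Cox8b, Cpt1b, Otop1, Gk and Kcnk3 lay between -0.03 and 0.25, and the creatine kinase Ckb was at -0.44 with a high-group SD of 0.99.

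In the 4 lists of fatty acid and glucose use, with 20, 19, 17 and 20 genes tested, 1 gene differed between the groups. Over all genes the share was 1.22%, so nothing is read from this count. Angptl4, a secreted inhibitor of lipoprotein lipase, was lower, with 99.2, 308 and 870 CPM in the high group and 178, 489 and 1215 CPM in the low group (difference -0.91, SD 0.91 and 0.72). None of 19 fatty acid oxidation genes met the measure. Of these, 18 had positive differences, against 6305 of all 13309 genes, and the median was 0.22, against -0.01 for all genes. In the test of 2 cycles 15 of these 19 passed, against 30.3% of all genes, yet 1 of 19 did without replicate 1 and 5 of 19 without replicate 2. Cpt1a, which admits long-chain fatty acids to mitochondria, was the one that passed in each fit (amplitude 0.40, adjusted p = 4.37e-06), and it peaked 35.9 degrees before Dbp (-35.9). Skeletal muscle markers, which also burn fatty acids, had positive differences too, with a median of 0.42, and their part in this result was not tested.

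For the lists that follow, the shares over all genes were 30.3% with all libraries, 3.79% without replicate 1 and 7.44% without replicate 2. Of 20 genes of fatty acid and triglyceride synthesis 11 passed the test of 2 cycles, 1 without replicate 1 and 5 without replicate 2. Dgat1, which makes triglyceride, passed in each (adjusted p = 4.08e-05). Of 20 genes of glucose uptake and glycolysis 7 passed, near the share over all genes, and 1 without replicate 1 and 2 without replicate 2. Of 17 genes of lipolysis, lipid uptake and droplets 9 passed, and Slc27a1, a fatty acid transport protein, passed in each fit (amplitude 0.60, adjusted p = 8.70e-05). Of 14 cholesterol synthesis genes 8 passed, none without replicate 1. Nuclear-coded respiratory chain genes were flattest, with differences between the groups from -0.02 to 0.21 and 2 of 20 passing.

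None of 18 heat shock proteins, chaperones that hold or refold proteins, differed between the groups, but 11 passed the test of 2 cycles, against 30.3% of all genes. Without replicate 1 there were 6 that passed, against 3.79% of all genes, and without replicate 2 there were 6, against 7.44%; Hspa8, Dnaja1 and Chordc1 passed in every fit. The 11 had a mean phase of 101 degrees after Dbp in brown fat. The members that passed in the white depots (13 of 18 in eWAT, against 27.4% of all genes, and 16 of 18 in iWAT, against 28.5%) had mean phases of 99.5 and 107 degrees. Hspa8, the constitutive HSC70, averaged 1281 ± 617 CPM at labelled ZT6 and 1159 ± 378 CPM at ZT22, but 441 ± 115 CPM at ZT4 and 442 ± 75.7 CPM at ZT14 (SD, n = 4 each; amplitude 0.82, adjusted p = 3.54e-06). Dnaja1 and Chordc1, cochaperones of HSP70 and HSP90, are the other pair (adjusted p of 7.12e-05 and 1.30e-05).

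Cirbp, an RNA-binding protein that rises in the cold, peaked 80.1 degrees before Dbp (-80.1), about opposite the heat shock proteins, with an amplitude of 0.81 (adjusted p = 4.61e-06). Its phase was -85.3 in eWAT and -64.6 in iWAT. The list of cold-inducible RNA-binding proteins holds 2 genes, and both passed in brown fat. Their mean phase there was -52.9 degrees, so the contrast with the heat shock proteins is that of Cirbp and not of the list. Of 14 chaperones of the endoplasmic reticulum 8 passed, against 30.3% of all genes, and none did without replicate 1, against 3.79%. In this list 1 gene differed between the groups, against 1.22% of all genes. That gene, Sdf2l1, had 0.897, 2.41 and 4.44 CPM in the high group and 1.42, 3.96 and 8.43 CPM in the low group (difference -0.81, SD 0.60 and 0.59).

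Of 11 glucocorticoid-responsive genes tested 7 passed the test of 2 cycles, against 30.3% of all genes, with 3 of 11 passing without replicate 1 and 3 of 11 without replicate 2. The phases of the 7 were spread widely around a mean of -51.6 degrees. Their mean vector had a length of 0.26, where 0 is no shared phase and 1 the same phase. Between the groups 1 gene of this list differed, against 1.22% of all genes. Tsc22d3 (GILZ) and Fkbp5, which glucocorticoid receptors induce in many tissues, had amplitudes of 0.72 and 0.77 and phases of 69.3 and 47.1 degrees after Dbp (adjusted p of 1.17e-07 and 3.08e-05), and both passed without either replicate. Cdkn1a, which encodes the cell cycle inhibitor p21, was on the other side, with 18.1, 43.8 and 74.5 CPM in the high group and 66.3, 126 and 266 CPM in the low group (difference -1.63, SD 0.56 and 0.60), and 21 of the 24 low-group libraries exceeded every high-group library. It fell in eWAT by 0.95 ± 0.27 and in iWAT by 0.92 ± 0.16 at ZT6 to ZT16 (adjusted p of 0.0174 and 6.64e-05). Without replicate 2 Cdkn1a did not pass in eWAT (adjusted p = 0.593). Nrg4, a growth factor that brown fat secretes, had 160, 221 and 298 CPM in the high group and 102, 169 and 218 CPM in the low group, a difference of 0.42 that did not meet the size set, and it passed the test of 2 cycles in each fit (amplitude 0.34, adjusted p = 1.61e-06). The 17 immediate early genes, 7 adipokines and 9 proliferation genes tested held no gene that met the measure.

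Among genes outside the lists with at least 5 CPM on average, the largest difference was that of Dtx4, a ubiquitin ligase of the deltex family. It had 7.53, 15.7 and 36.6 CPM in the high group and 31.7, 66.1 and 106 CPM in the low group (difference -2.00, SD 0.66 and 0.40), and all but 1 low-group library exceeded every high-group library. Dtx4 fell at ZT6 to ZT16 by 1.11 ± 0.20 in eWAT and by 1.43 ± 0.15 in iWAT (adjusted p of 3.70e-04 and 7.78e-09; 0.236 in eWAT without replicate 2), and its phase was -179.8 degrees in brown fat, 179.9 in eWAT and 179.1 in iWAT.

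Lower in the high group as well were E2f2, a cell cycle transcription factor (-1.74), Tshr, the thyrotropin receptor (-1.35), Dapk1, a death-associated kinase (-1.20), Dhrs9, a retinol dehydrogenase (-1.19), Rgs2, a brake on G protein signalling (-1.12), and Creb3l1, a transcription factor of the endoplasmic reticulum (-1.04). Dapk1 and Creb3l1 fell in both white depots, E2f2 in eWAT only at this threshold and Tshr and Dhrs9 in iWAT only, a difference between depots that was not tested. None of these calls in eWAT held without replicate 2, and without replicate 1 Creb3l1, Tshr and Dhrs9 did not pass in iWAT. Tshr had 8.13, 15.7 and 47.2 CPM in the high group and 22.3, 46.9 and 62.0 CPM in the low group. Rgs2 did not pass in either white depot (0.00 ± 0.21 and -0.03 ± 0.12).

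Higher in the high group were Mylk4, a myosin light chain kinase (1.97), Inmt, a methyltransferase (1.57), Tcap, the titin cap protein of striated muscle (1.28), and Chrna2, a nicotinic receptor subunit (1.23). Mylk4 had 58.6, 209 and 433 CPM in the high group and 15.5, 45.4 and 174 CPM in the low group, and 17 high-group libraries exceeded every low-group library. In iWAT Tcap rose by 1.85 ± 0.58 at ZT6 to ZT16 (adjusted p = 0.0145), though not without replicate 1 or replicate 2 (adjusted p of 0.33 and 0.0788), while Mylk4 did not pass (1.52 ± 0.63, adjusted p = 0.0634). Neither Inmt nor Chrna2 passed this comparison in a white depot, and Mylk4 and Tcap had too few counts in eWAT to be tested.

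Markers of other cell types moved with the groups to a lesser degree. All 15 skeletal muscle fibre markers had positive differences, from 0.28 to 0.57 with a median of 0.42, and none met the measure. Their summed level ran from 3179 to 18574 CPM in the high group (median 8144) and from 2353 to 18640 CPM in the low group (median 5913). Over all genes 6305 of 13309 differences were positive. None of the 15 muscle markers passed the test of 2 cycles. The part of muscle tissue in the values of Mylk4, Tcap and the fatty acid oxidation genes was not tested.

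Macrophage markers ran the other way, with 11 of 12 negative, a median of -0.29 and summed levels of 255 to 711 CPM in the high group (median 463) and 250 to 1209 CPM in the low group (median 562). Of the 12 macrophage markers 1 had a positive difference, against 6305 of all 13309 genes. Of 9 endothelial markers 1 met the measure, against 1.22% of all genes. That gene, Cldn5, a tight junction protein, had 3.59, 10.4 and 21.9 CPM in the high group and 6.57, 25.2 and 41.6 CPM in the low group (difference -1.03, SD 0.75 and 0.78). Pecam1, Cdh5 and Tie1 differed by -0.17, -0.16 and -0.19. Of the 9 endothelial markers 3 had positive differences, the highest 0.15, and the median was -0.16. White adipocyte, lymphocyte, fibroblast, erythroid, nerve and epithelial markers held no gene that met the measure, and their median differences lay between -0.23 and 0.29. No marker of these lists was at 0 in every library.

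**Figure D5:**
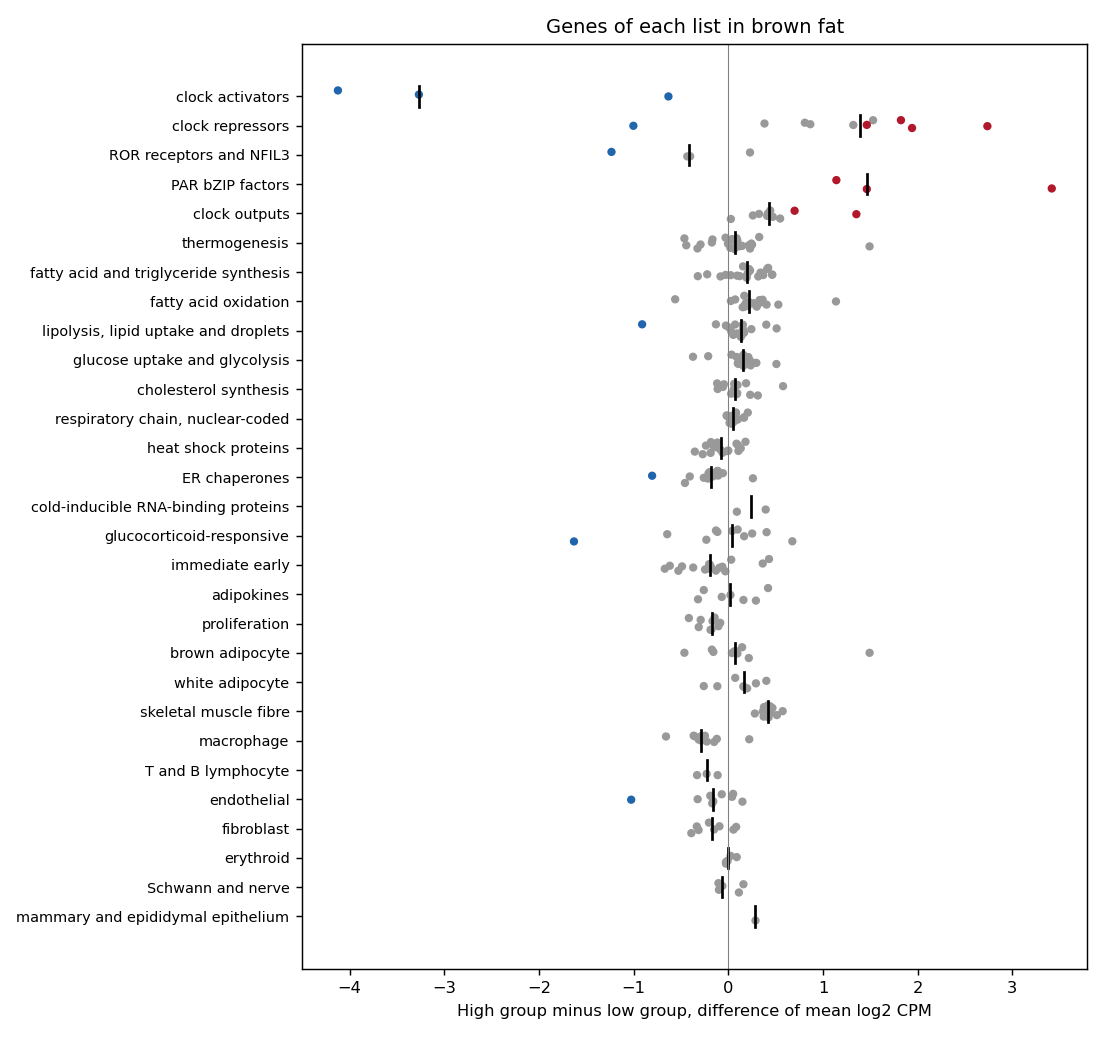
High group minus low group difference of mean log2 CPM (horizontal axis) for each gene tested, by gene list; red points were higher and blue points lower by the measure in the text, grey points met neither, and the black bar is the list's median. Clock lists spread widest, thermogenesis genes centre near 0 except Elovl3, and the muscle markers all lie right of 0.

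TRF and ALF were compared in brown fat with the score group in the model, since feeding did not choose the groups. In the edgeR quasi-likelihood fit no gene of 13309 passed (0%), with 1400 at an unadjusted p under 0.05 and 0 by DESeq2. Within the high group no gene passed (0%), with 2695 at an unadjusted p under 0.05, while DESeq2 called 3, named here after their values were seen: Haus6, Mr1 and Nae1, higher in TRF by 0.47 ± 0.11, 0.54 ± 0.12 and 0.39 ± 0.09 (adjusted p = 0.0335 for each). Within the low group no gene passed (0%, 155 unadjusted, 0 by DESeq2), and the difference between the groups held none (0%, 844 unadjusted, 0 by DESeq2). In simulated counts with the same spread for all genes, this last test found 9% of genes changed by 0.5 on the log2 scale and 56% of those changed by 1. The feeding test over both groups found 56% and 100% there. No call is therefore not a sign that feeding had no effect. The numbers at an unadjusted p under 0.05 depended on the setting: offsets for GC content gave 728 over both groups and 1035 in the high group, and leaving out replicate 2 gave 261 over both groups and 650 in the high group. In the low group leaving out replicate 1 gave 784, and for the difference between the groups GC offsets gave 336 and leaving out replicate 2 gave 424. Without a filter on low counts the fit called 15 genes over both groups and 19 in the high group.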

How the data were processed

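Stranded libraries of polyadenylated RNA were sequenced, per the labels' protocols. STAR 2.5.3a, HOMER 4.10 and the build GRCm38 are named in the submitters' processing notes, without their roles. The authors deposited 1 column of expected counts per library (24537 rows), not normalized; 29.66% of the brown fat values are not whole. How repeat runs were joined is not given in the sources used here. Counts were rounded, and 4 rows with duplicated names were left out. After edgeR's filterByExpr by feeding, TMM factors scaled the counts for quasi-likelihood models (edgeR 4.0.16, R 4.3.3; DESeq2 1.42.0 as an alternative), with Benjamini-Hochberg adjustment over all genes at 0.05. The score used CPM of all counts with a pseudocount of 1; gene levels are TMM-scaled CPM. Models were tested on simulated counts.

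The members and lists were chosen with earlier results of these data known. Named were the clock and thermogenesis genes (some clock genes are not reported here), up to 4 members of each other list that met the measure, and the 10 largest differences each way with at least 5 CPM on average and 1 sign in both feeding groups and replicate numbers; other genes were picked after their tests of 2 cycles were seen, a test added later. Total counts of 4.18 to 81.2 M (M, mega) set the counting precision.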

Additional observations from a re-analysis of the deposited data

Results flagged for a closer look

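The difference of the score between labelled times (log2(CPM + 1) of Dbp minus that of Arntl, ZT6 to ZT16 minus ZT18 to ZT4) was not the same in brown and white fat. It was -1.67 in brown fat (means -0.587 and 1.09) and 4.13 in eWAT (means 2.82 and -1.31), so brown fat minus eWAT came to -5.81. In iWAT it was 4.00 (means 2.41 and -1.59), and brown fat minus iWAT came to -5.68. The score is the measure that formed the groups, and its mismatch with the labelled times of brown fat was known beforehand, so these values are a description. No direction over the labelled day is established in brown fat, where a 24 h cosine of the score had a permutation p of 0.265 and the same comparison of labels called 0 genes (746 at an unadjusted p under 0.05, and 0 by DESeq2).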

How the results depend on the processing

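The score against labelled time had an R2 of 0.731 with a 12 h period in place of 0.0568. With the 12 highest against the 12 lowest libraries the odds ratio for labels of ZT6 to ZT16 was 0.357 (exact p = 0.414) and that for TRF was 0.714 in place of 1.40; without each replicate labels of ZT6 to ZT16 kept an odds ratio of 0.25 (exact p = 0.22), and TRF had 1 and 1.96. The number of genes that differed between the groups was 785 with 12 against 12 libraries, 272 in TRF alone, 273 in ALF alone, 552 in libraries of 1 run, 923 above the median depth, and 210 to 284 without each replicate, in place of 162. Taken by gene and setting, the differences of the genes named moved by more than an SD in 5 comparisons and did not in 1000, and none changed sign. In the feeding tests, no filter on low counts gave 15 genes over both groups and 19 in the high group, and DESeq2 gave 3 there. Leaving out each replicate gave 7 to 642 genes for ZT6 to ZT16 against ZT18 to ZT4 in eWAT, 176 to 1645 in iWAT, and for the cosines 502 to 975 in brown fat, 929 to 1836 in eWAT and 308 to 2181 in iWAT, with 24 libraries each. The other period gave 217 genes in brown fat, 0 in eWAT and 0 in iWAT. With the replicate number as a block the 4 feeding tests and the labelled-time comparison of brown fat called 0 genes, and that comparison 1433 in eWAT and 4233 in iWAT, so the block moved none of these counts by over 1.5 times; the numbers did not pair TRF with ALF libraries, whose deviations correlated at -0.449 to 0.24 over 12 times. Offsets for GC content gave 161 genes between the groups and 4727 for the cosine in brown fat. The causes of these changes, fewer samples among them, were not tested. Depth limits genes near 1 CPM, such as Npas2 and Ciart.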
